A study of Homo sapiens with 2 samples.

Results

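The 7 genes tied to known lesions of MDA-MB-231, an established human breast cancer line, are described here in 2 RNA sequencing libraries: NRAS, HRAS, BRAF, NF2, CDKN2A, CDKN2B and MTAP. They were chosen by name, as genes known to be mutated or deleted in the line together with a chromosomal neighbour and RAS paralogs, and these 7 are among 58233 gene lines in the deposited table. One culture had been transduced with a lentivirus carrying a control hairpin (shCon) and the other with a hairpin against MPP7 (shMPP7), a scaffold protein of cell junctions. Both received virus at a multiplicity of 10, changed to fresh medium after 12 h, viewed by fluorescence microscopy at 72 h and held in puromycin (1 mg/ml as labelled) for 7 days, and nothing in the labels says that either culture was a single clone. There was 1 library per group, so no p-value was computed, no difference below has a replicate check, and every interval covers counting error only.

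RAS proteins are membrane-bound GTPases that relay growth factor signals to RAF kinases, which switch on MEK and ERK. MDA-MB-231 is known for activating lesions at several steps of this route, among them a missense change in BRAF. NF2 encodes merlin, a tumour suppressor of the ERM family that links the membrane to actin and feeds the Hippo pathway, and the line is known to carry a truncating NF2 change. On chromosome arm 9p, CDKN2A encodes the INK4A inhibitor of the cyclin D kinases and, from another first exon, the ARF protein, which restrains MDM2. CDKN2B encodes the related inhibitor INK4B, and MTAP next to them encodes the enzyme that recycles methylthioadenosine into methionine. This interval is known to be lost in the line. DNA was not measured here, so the libraries show transcript level and silence, not the lesions themselves.

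The promoter windows of the 9p members are shown because almost no reads were counted for these genes. Counts were given per gene, so the upstream and downstream starts of CDKN2A cannot be told apart. The windows are reference sequence, and whether these cells carry them was not measured. Each runs from 250 bases before to 50 bases after a transcript start in RefSeq on GRCh38.p14, 5′ to 3′ on the strand of the gene. Capitals mark the GC box letters GGGCGG or their reverse complement CCGCCC, searched on both strands.
CDKN2A, upstream start at chr9:21995275-21995574, minus strand: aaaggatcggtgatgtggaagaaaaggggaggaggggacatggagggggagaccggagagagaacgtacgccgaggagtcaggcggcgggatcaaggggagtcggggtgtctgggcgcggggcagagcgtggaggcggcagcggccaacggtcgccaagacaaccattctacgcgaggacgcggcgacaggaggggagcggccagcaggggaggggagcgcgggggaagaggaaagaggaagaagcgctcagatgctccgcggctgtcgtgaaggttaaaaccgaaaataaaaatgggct
CDKN2A, downstream start at chr9:21974808-21975107, minus strand: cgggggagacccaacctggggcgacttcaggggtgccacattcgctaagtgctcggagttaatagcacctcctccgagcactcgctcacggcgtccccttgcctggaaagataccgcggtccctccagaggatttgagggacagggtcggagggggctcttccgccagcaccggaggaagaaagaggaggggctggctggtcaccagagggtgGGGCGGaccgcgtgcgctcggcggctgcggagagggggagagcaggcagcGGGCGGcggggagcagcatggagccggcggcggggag
CDKN2B at chr9:22009256-22009555, minus strand: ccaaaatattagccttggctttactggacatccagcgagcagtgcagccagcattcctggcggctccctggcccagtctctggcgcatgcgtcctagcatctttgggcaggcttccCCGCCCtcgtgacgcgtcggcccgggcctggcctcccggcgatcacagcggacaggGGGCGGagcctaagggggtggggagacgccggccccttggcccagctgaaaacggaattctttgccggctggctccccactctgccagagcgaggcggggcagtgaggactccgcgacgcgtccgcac
MTAP at chr9:21802386-21802685, plus strand: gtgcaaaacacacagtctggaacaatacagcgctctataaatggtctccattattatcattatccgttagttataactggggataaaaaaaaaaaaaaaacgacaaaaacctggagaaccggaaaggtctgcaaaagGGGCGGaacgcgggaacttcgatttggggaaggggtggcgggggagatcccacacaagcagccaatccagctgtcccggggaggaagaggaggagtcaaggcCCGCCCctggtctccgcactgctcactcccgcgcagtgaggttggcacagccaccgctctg
The GC box letters occurred in 45.0% of 35116 promoter windows of the same length. They were found 2 times each in the CDKN2B, MTAP and downstream CDKN2A windows and not in the upstream CDKN2A window. In the windows of the expressed members they occurred 3 times for NRAS, 5 times for HRAS, 1 time in both listed NF2 windows and not for BRAF. The reference windows of the silent or nearly silent members held 15 to 28 CpG dinucleotides (15 for MTAP, 25 for CDKN2B, 26 and 28 for CDKN2A). The median was 14 over all windows, and the windows of the expressed members held 16 to 40. Motif and CpG content therefore overlapped between the silent and the expressed members.

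The 2 libraries held 23928620 (shCon) and 24513089 (shMPP7) estimated counts, with 20451 and 20142 gene lines above 0. MPP7, the target of the hairpin, had 42 counts in the control library and 21 in shMPP7. The ratio of its counts scaled to library size (CPM) was 0.488 (95% interval 0.275 to 0.843). MPP7 had fewer counts than the minimum of 100 over both libraries that the shares of genes below rest on. With a minimum of 10 counts, 446 genes were at least 2-fold lower in CPM, and with 100 counts 13 were. Markers of mesenchymal and basal breast cells were present, with VIM at 2791 and 3317 FPKM (fragments per length of transcript, at a fixed library size) and AXL at 522 and 558 FPKM. Of 6 luminal markers, ESR1, PGR and CDH1 had 8 counts or fewer over both libraries, while KRT19 at 225 and 235 FPKM, GATA3 at 350 and 422 counts and EPCAM at 165 and 148 counts were detected. Of the leukocyte, fibroblast and endothelial markers, PTPRC, CD3E, DCN and LUM had at most 1 count, VWF and CDH5 had 8 or fewer, and PDGFRB (467 and 393 counts), CD14 (121 and 176) and PECAM1 (68 and 73) were detected. All 12 genes of other organs, such as ALB, INS and MYH7, were at 0 in both libraries, which is the level stray counts reached in that list.

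The 7 genes fell into 4 that were expressed in both libraries and 3 that were silent or nearly so. By FPKM, which is scaled by length and so allows levels of different genes to be compared, HRAS was highest, followed by NRAS, BRAF and NF2, in the same order in both libraries. HRAS lay above 94.6% of protein-coding gene names in shCon and NRAS above 82.0%, while BRAF lay above 59.8% and NF2 above 46.1%. CDKN2A, CDKN2B and MTAP had 0 counts in shCon, and in shMPP7 only MTAP had any. No difference between the libraries reached 2-fold for any of the 4 expressed genes, either in CPM or in FPKM with 1 added. As background, 12155 gene names had 100 counts or more when both libraries were added. Of these, 0.156% were higher by 2-fold or more in the CPM of shMPP7 and 0.107% were lower by that much, together 0.263%. In FPKM the same shares were 0.889% and 0.881% of 12933 gene names with a mean of at least 1.

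**Figure D1:**
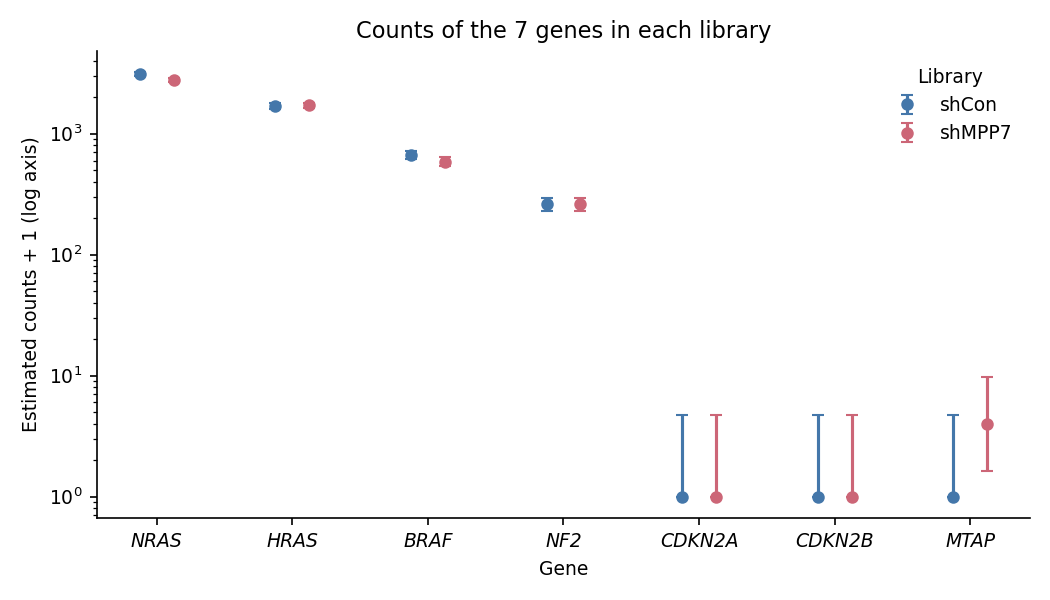
Estimated counts plus 1 (log axis) of each gene in the shCon library (blue) and the shMPP7 library (red); points are single libraries and bars are exact 95% Poisson intervals. NRAS, HRAS, BRAF and NF2 lie between 259 and 3123 counts in both libraries, and CDKN2A, CDKN2B and MTAP lie between 0 and 3.

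NRAS, a RAS GTPase often mutated in melanoma, lies on chromosome 1, positions 114704469 to 114716894 of GRCh38, minus strand (ENSG00000213281). It had 3123 counts in shCon and 2790 in shMPP7, which were 131 and 114 CPM and 30.7 and 27.9 FPKM. The NRAS count was lower in shMPP7, with a CPM ratio of 0.872 (0.828 to 0.918). Intervals below 1 were common: 21.5% of the gene names with at least 100 counts had one, and 13.8% had an interval above 1. This split depended on the scaling, since 17.5% lay below 1 and 18.5% above with TMM factors, and 16.3% below and 20.4% above with median-of-ratios factors. Among 2956 protein-coding genes with counts within 2-fold of those of NRAS, 9.88% had a log2 CPM ratio at least as far from 0. The NRAS ratio was 0.909 in FPKM and 0.965 after subtraction of the trend that ratios followed over long and AT-rich transcripts (the length and GC trend), so it lay nearer 1 by both measures. In a bulk library, fewer cells with a transcript and less of it per cell cannot be told apart.

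HRAS, the paralog first found in a rat sarcoma virus, lies on chromosome 11, positions 532242 to 537287, minus strand (ENSG00000174775). It had 1693 counts in shCon and 1724 in shMPP7, or 70.8 and 70.3 CPM. The HRAS CPM ratio was 0.994 (0.929 to 1.06), so no difference was detectable at this depth. Its interval did not overlap that of NRAS, but with the trend removed HRAS stood at 0.937, below the 0.965 of NRAS, so the order of the 2 ratios was not stable.

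Per length, HRAS was more abundant than NRAS. HRAS had 107 FPKM in shCon and 112 in shMPP7, which was 3.47 times the NRAS level in shCon and 4.03 times in shMPP7. In counts the order was the opposite, since HRAS had 0.542 and 0.618 times as many as NRAS. The 2 transcripts differ in length, and the deposited FPKM values correspond to about 664 bases for HRAS in shCon and 4251 bases for NRAS, where the longest annotated transcripts have 1233 and 4449 bases. With counts divided by those longest transcripts, HRAS was still higher, by 1.96 times in shCon and 2.23 times in shMPP7. The size of the HRAS excess therefore depended on the length assigned to it, and its direction per length did not under these settings.

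Relatives of the RAS genes stood on both sides of these levels. RRAS, a RAS-related GTPase that acts on integrin adhesion, had 95.3 FPKM in shCon and 101 in shMPP7, close to HRAS. RRAS2 had 41.6 and 46.2 FPKM, and MRAS, which forms a phosphatase complex with SHOC2, had 5.71 and 5.52 FPKM. Of 13 listed relatives, 11 had at least 100 counts, and none was 2-fold apart. Of these 11, the interval lay above 1 for 1 gene (9.09%) and below 1 for 3 (27.3%). Over all gene names with at least 100 counts these shares were 13.8% and 21.5%. The median log2 CPM ratio of the list was -0.01, beside -0.02 over those gene names. It was 0.09 with the length and GC trend removed. MRAS, with 336 and 276 counts, stood at 0.802 (0.681 to 0.943). The RAL GTPases, which RAS activates through exchange factors, differed in direction: RALA had a ratio of 0.870 (0.789 to 0.959) and RALB of 1.14 (1.06 to 1.22). RAP2A stood at 0.902 (0.815 to 0.999), but its interval included 1 with TMM or median-of-ratios factors, and its ratio was 1.02 with the length and GC trend removed. With those factors the list had 2 intervals above 1 and 2 below it (18.2% each). All gene names had 18.5% and 17.5% with TMM, or 20.4% and 16.3% with median-of-ratios factors. The embryonic paralog ERAS had 3 and 2 counts and the imprinted suppressor DIRAS3 2 and 0, so both were near silent.

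**Figure D2:**
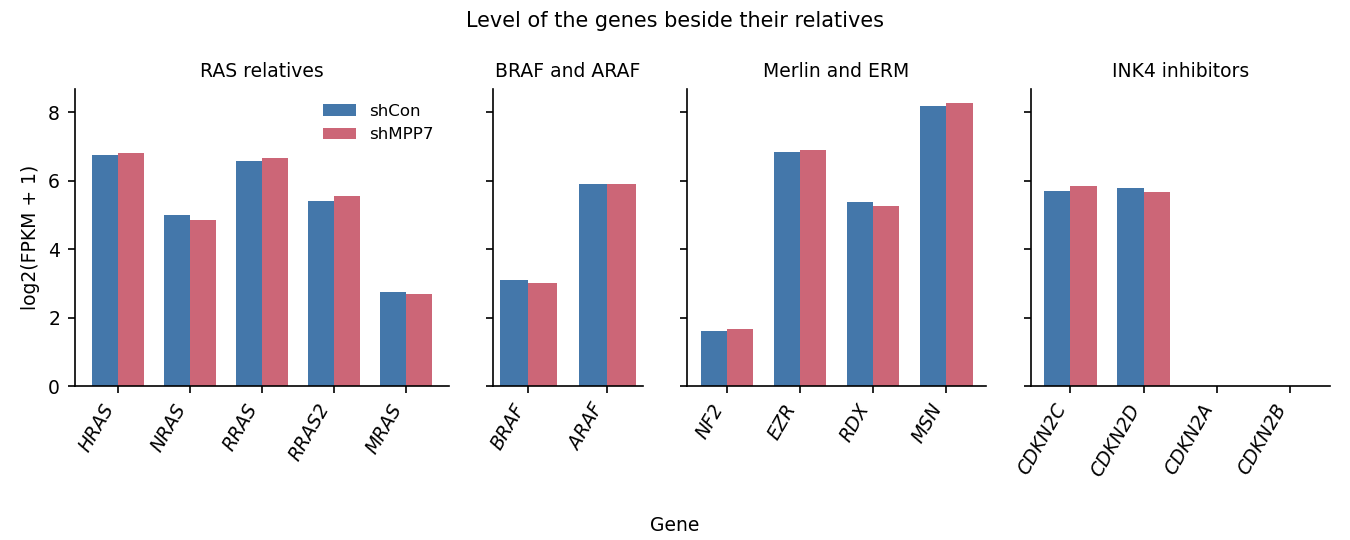
Level of each gene as log2(FPKM + 1) in the shCon (blue) and shMPP7 (red) libraries, in 4 groups of relatives; bars are single libraries with no replicate error. BRAF and NF2 are the lowest of their groups, and CDKN2A and CDKN2B have no bar because they are listed at 0, beside CDKN2C and CDKN2D at about 50 FPKM.

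BRAF, the RAF kinase most often mutated in cancer, lies on chromosome 7, positions 140719327 to 140924928, minus strand (ENSG00000157764). It had 665 estimated counts in shCon and 586 in shMPP7, or 27.8 and 23.9 CPM. Its CPM ratio was 0.860 (0.768 to 0.963), and 0.923 in FPKM. Among 4516 protein-coding genes with similar counts, 20.0% had a ratio at least as far from 1, and with the length and GC trend removed BRAF stood at 0.987. The BRAF counts are fractional, as when reads are shared, and its annotated transcripts held stretches of at least 100 bases with at least 97% identity to transcripts of 32 other genes. Of these, 19 had at least 100 counts over both libraries, such as CYB5R3 (307 aligned bases, 5102 and 5262 counts) and SPPL2A (309 bases, 1273 and 1376 counts), and the pseudogene BRAFP1 was at 0. The BRAF value is uncertain to the extent that reads of these stretches were shared, which was not tested. BRAF also overlaps NDUFB2 on the opposite strand (1504 and 1468 counts), and the labels do not say whether counting used strand.

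BRAF was less abundant than its paralog ARAF. It had 7.60 FPKM in shCon and 7.01 in shMPP7, where ARAF had 59.0 and 59.6. ARAF was thus 7.76 and 8.50 times as abundant as BRAF in these libraries. The CPM ratio of ARAF was 1.01 (0.964 to 1.07), with an interval that included 1. Of 12 listed RAF, MEK and ERK kinases and scaffolds, 11 had at least 100 counts and none was 2-fold apart. Of the 11, 3 (27.3%) had an interval above 1 and 4 (36.4%) below it, with CPM and with both other scalings. Over all gene names these shares were 13.8% and 21.5% in CPM, 18.5% and 17.5% with TMM, and 20.4% and 16.3% with median-of-ratios factors. The median log2 CPM ratio of the list was 0.02, and -0.04 with the length and GC trend removed. The 4 with an interval below 1 were MRAS, SHOC2, LAMTOR3 (a scaffold for MEK on late endosomes) and the actin-binding scaffold IQGAP1. SHOC2 stood at 0.848 (0.739 to 0.972), LAMTOR3 at 0.847 (0.735 to 0.975) and IQGAP1 at 0.855 (0.828 to 0.884). With the trend removed SHOC2 stood at 0.942, LAMTOR3 at 0.940 and IQGAP1 at 0.932. The brain-expressed scaffold KSR2 was at 0 in both libraries.

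Regulators that load RAS with GTP or make it hydrolyse GTP were, by count, in part slightly lower in shMPP7. Of 17 listed exchange factors and GTPase activators, 11 had at least 100 counts, none was 2-fold apart, and 5 (45.5%) had an interval below 1 and 1 (9.09%) above it, beside 21.5% and 13.8% of all gene names. The exchange factors SOS1 and SOS2 had CPM ratios of 0.827 (0.752 to 0.911) and 0.835 (0.752 to 0.927). The GTPase activators NF1 and RASA1 had ratios of 0.811 (0.727 to 0.905) and 0.834 (0.783 to 0.889). Exchange factors and GTPase activators have opposite effects on RAS, and here their ratios were of similar size. The median log2 CPM ratio of the list was -0.15, and 0.03 with the length and GC trend removed, so the direction of the list did not hold once that trend was taken out.

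NF2 lies on chromosome 22, positions 29603556 to 29698598, plus strand (ENSG00000186575). It was counted 260 times in shCon and 259 times in shMPP7. The CPM ratio was 0.973 (0.816 to 1.16), so no difference was detectable at this depth. In FPKM the ratio was 1.07. NF2 transcripts were present at a low level of 2.04 and 2.19 FPKM. The ERM proteins, which resemble merlin and also join membrane proteins to actin, were far more abundant. EZR had 113 and 119 FPKM, RDX 40.6 and 37.7, and MSN 292 and 308, which was 55.4, 19.9 and 143 times the NF2 level in shCon. RDX, with 2408 and 2026 counts, stood at a CPM ratio of 0.821 (0.774 to 0.872), and 0.908 with the length and GC trend removed. The intervals of EZR and MSN included 1. With median-of-ratios factors both of those lay above 1, as MSN did with TMM factors.

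Of 16 listed ERM proteins and merlin partners, 15 had at least 100 counts and none was 2-fold apart. In CPM 2 (13.3%) had an interval above 1 and 5 (33.3%) below it, beside 13.8% and 21.5% of all gene names. With TMM factors these were 4 and 4 (26.7% each), beside 18.5% and 17.5%. With median-of-ratios factors they were 5 and 4 (33.3% and 26.7%), beside 20.4% and 16.3%. The median log2 CPM ratio was -0.06 (0.00 with the trend removed). PAK1, a kinase that phosphorylates merlin, with 674 and 827 counts, stood at 1.20 (1.08 to 1.33). The Hippo kinase LATS1 had a ratio of 0.849 (0.755 to 0.956), and PPP1R12A, a subunit of the phosphatase that acts on merlin, 0.802 (0.746 to 0.863). With the trend removed LATS1 stood at 0.962, PPP1R12A at 0.897 and PAK1 at 1.21. AMOT, an angiomotin that binds merlin, was at 0 in both libraries, where its paralogs AMOTL1 and AMOTL2 had 2498 and 3557 counts in shCon.

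CDKN2A, CDKN2B and MTAP were silent or close to it. CDKN2A (ENSG00000147889, chromosome 9, positions 21967753 to 21995301, minus strand) had 0 counts in shCon and 0 in shMPP7. CDKN2B (ENSG00000147883, positions 22002903 to 22009363, minus strand) had 0 and 0 counts as well. MTAP (ENSG00000099810, positions 21802543 to 21937651, plus strand) had 0 counts in shCon and 3 in shMPP7 (exact Poisson interval 0.619 to 8.77), or 0.02 FPKM. A count of 0 allows up to 3 counts, or 0.125 CPM in shCon and 0.122 CPM in shMPP7, and the exact two-sided Poisson interval of a count of 0 ends at 3.69 counts. MTAP had no more than 3 counts in either library, so no fold is given. Of protein-coding genes on the autosomes and X, 33.3% had 10 counts or fewer over both libraries and 23.0% were at 0 in both, so low counts by themselves are not unusual. MTAP encodes an enzyme of general metabolism, and the share of such genes at low counts was not tested.

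The silence extended over the neighbours of these genes. In map order, 25 consecutive protein-coding genes from HACD4 to IZUMO3 (chromosome 9, positions 20999515 to 24545946 of GRCh38, 3.55 Mb) had 10 counts or fewer, and together they held 3 counts, all of MTAP in shMPP7. They were the 3 members, 16 interferon genes and 6 others. The interferon genes are induced by infection and are silent in most resting cells. The others were KLHL9, an adaptor of a ubiquitin ligase used in mitosis, HACD4, a gene of the fatty acid dehydratase family, ELAVL2, a neuronal RNA-binding protein, DMRTA1, a transcription factor gene, the sperm membrane gene IZUMO3, and AL359922.1, a gene model that overlaps MTAP, CDKN2A and CDKN2B. Each of these 6 was at 0 in both libraries. The noncoding genes behaved alike, with CDKN2B-AS1, the antisense RNA over CDKN2A and CDKN2B, and MIR31HG at 0. Of 68 gene lines of all types in the interval, 65 were at 0 in both libraries, and the exceptions beside MTAP were LINC01239 with 0 and 1 counts and the pseudogene CLIC4P1 with 0 and 3.05.

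Most of the named genes on both sides were expressed. Toward the telomere, FOCAD, a gene with tumour suppressor activity in glioma, had 48.0 and 68.0 counts, and MLLT3, next to it, had 213 and 209. Farther out the ribosomal protein gene RPS6 had 20583 and 22180 counts, and RRAGA, a GTPase of amino acid sensing, 1747 and 1838. HAUS6, PLIN2 and DENND4C, near RRAGA, had 403 to 1326 counts in either library, and ACER2 had 24 and 23. Toward the centromere, TUSC1 had 331 and 400 counts, CAAP1 597 and 623 and PLAA 1360 and 1283. Beyond PLAA, LRRC19 had 1 and 3 counts and TEK 1 and 4, so both were near silent. MOB3B was low at 18 and 14 counts, and C9orf72 had 128 and 128. The distance between FOCAD and TUSC1 was 4.68 Mb, and no protein-coding gene of the table between them had more than 3 counts. Within 3 Mb of CDKN2A, 27 of 35 protein-coding genes had 10 counts or fewer, the other 2 outside the run being SLC24A2 and SAXO1 at 0.

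**Figure D3:**
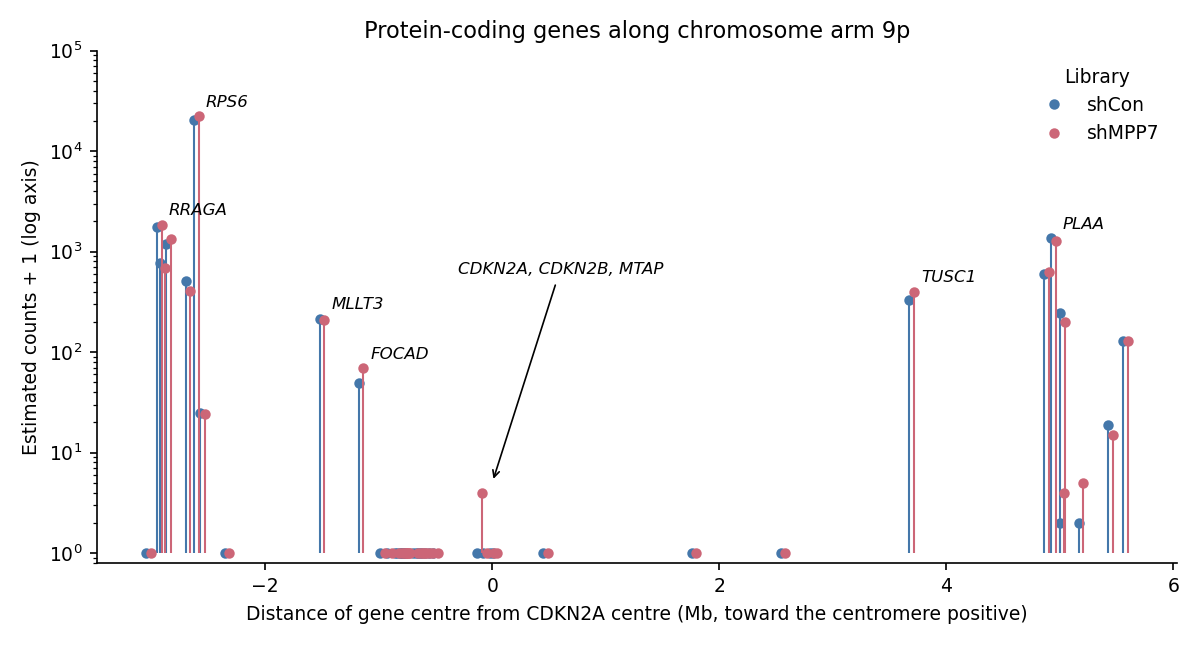
Estimated counts plus 1 (log axis) of protein-coding genes along chromosome arm 9p against the distance of each gene from CDKN2A in Mb, for the shCon (blue) and shMPP7 (red) libraries; points at the bottom of the axis are genes at 0. Between FOCAD and TUSC1 all genes lie at 0 to 3 counts, and RPS6 and PLAA on the flanks lie at 20583 and 1360 in shCon.

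Runs of as many near silent genes occurred elsewhere. Of 3196 runs of any gene number along the autosomes and X, 11 held at least 25 such genes, 9 of them more than 25. The longest in gene number ran from OR4B1 to APLNR on chromosome 11 with 65 genes. Of those 11 runs, 2 spanned at least 3.55 Mb, the one on 9p and the one on chromosome 11, and 19 runs of any gene number did. From counts of 0 alone, loss of the DNA and lack of transcription cannot be told apart in this interval.

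FOCAD, the last gene with counts before the run, differed more in FPKM than in counts. Its counts of 48.0 and 68.0 gave a CPM ratio of 1.38 (0.942 to 2.04), an interval that included 1, while its FPKM of 1.73 and 3.66 gave a ratio of 2.12. The FPKM values correspond to about 1162 bases in shCon and 758 in shMPP7, well under its longest annotated transcript of 6096 bases. TUSC1, on the other side, had a CPM ratio of 1.18 (1.02 to 1.37) and 1.23 in FPKM. IFT74, an intraflagellar transport gene beyond PLAA, stood at 0.799 (0.659 to 0.968).

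Other inhibitors and kinases of the G1 step at which CDKN2A and CDKN2B act were expressed. CDKN2C and CDKN2D, the remaining INK4 inhibitors, had 51.5 and 57.0 FPKM and 53.8 and 49.7 FPKM, where CDKN2A and CDKN2B were at 0. The CPM ratio of CDKN2C was 1.04 (0.982 to 1.10) and that of CDKN2D 0.905 (0.832 to 0.984). Whether each interval included 1 depended on the scaling. The CDKN2D interval included 1 with TMM and median-of-ratios factors, and the CDKN2C interval lay above 1 with median-of-ratios factors. The CDKN2C and CDKN2D genes lie on other chromosomes. CDK4, a kinase that INK4 proteins inhibit, had 4164 and 4652 counts, and CDK6, the other, 1744 and 1316. CDK6 had a CPM ratio of 0.737 (0.685 to 0.792), and 0.861 with the length and GC trend removed. RB1, the retinoblastoma protein that these kinases phosphorylate, was counted 1495 and 1261 times, at a ratio of 0.823 (0.763 to 0.888), and its relative RBL1 a ratio of 0.771 (0.712 to 0.836). CDK2 was higher at 1.12 (1.05 to 1.19). With the trend removed RB1 stood at 0.926, RBL1 at 0.855 and CDK2 at 1.10. Of 17 listed genes, 16 had at least 100 counts and none was 2-fold apart. Of these 16, 4 had an interval above 1 and 4 below it in CPM, beside 13.8% and 21.5% of all gene names. With TMM factors 4 of the 16 lay above 1 and 3 below, beside 18.5% and 17.5%. With median-of-ratios factors 5 lay above 1 and 3 below, beside 20.4% and 16.3%. The median log2 CPM ratio of the list was 0.01. CCND2 had 0 and 1 counts.

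The genes around MTAP in methionine salvage were expressed in both libraries. MRI1, APIP, ENOPH1 and ADI1, whose enzymes act after MTAP in the pathway, had 638 to 4572 counts in shCon and 725 to 5016 in shMPP7. PRMT5, the arginine methyltransferase that methylthioadenosine inhibits, had 4744 and 5178 counts, and MAT2A, which makes its methyl donor, 6434 and 6401. All 16 listed genes had at least 100 counts, none was 2-fold apart, and 6 (37.5%) had an interval above 1 and 1 (6.25%) below it, beside 13.8% and 21.5% of all gene names, with a median log2 CPM ratio of 0.08 (0.10 with the trend removed). With TMM or median-of-ratios factors 9 lay above 1 and 1 below, beside 18.5% and 17.5%, or 20.4% and 16.3%, of all gene names. COPRS, a cofactor of PRMT5 on histones, with 1556 and 1929 counts, stood at 1.21 (1.13 to 1.29). ODC1 and SRM, which make putrescine and spermidine, had ratios of 1.17 (1.13 to 1.22) and 1.15 (1.09 to 1.21). AMD1, which supplies the aminopropyl group whose transfer releases methylthioadenosine, was lower at 0.814 (0.766 to 0.866). With the trend removed AMD1 stood at 0.911, COPRS at 1.13, ODC1 at 1.15 and SRM at 1.08.

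**Figure D4:**
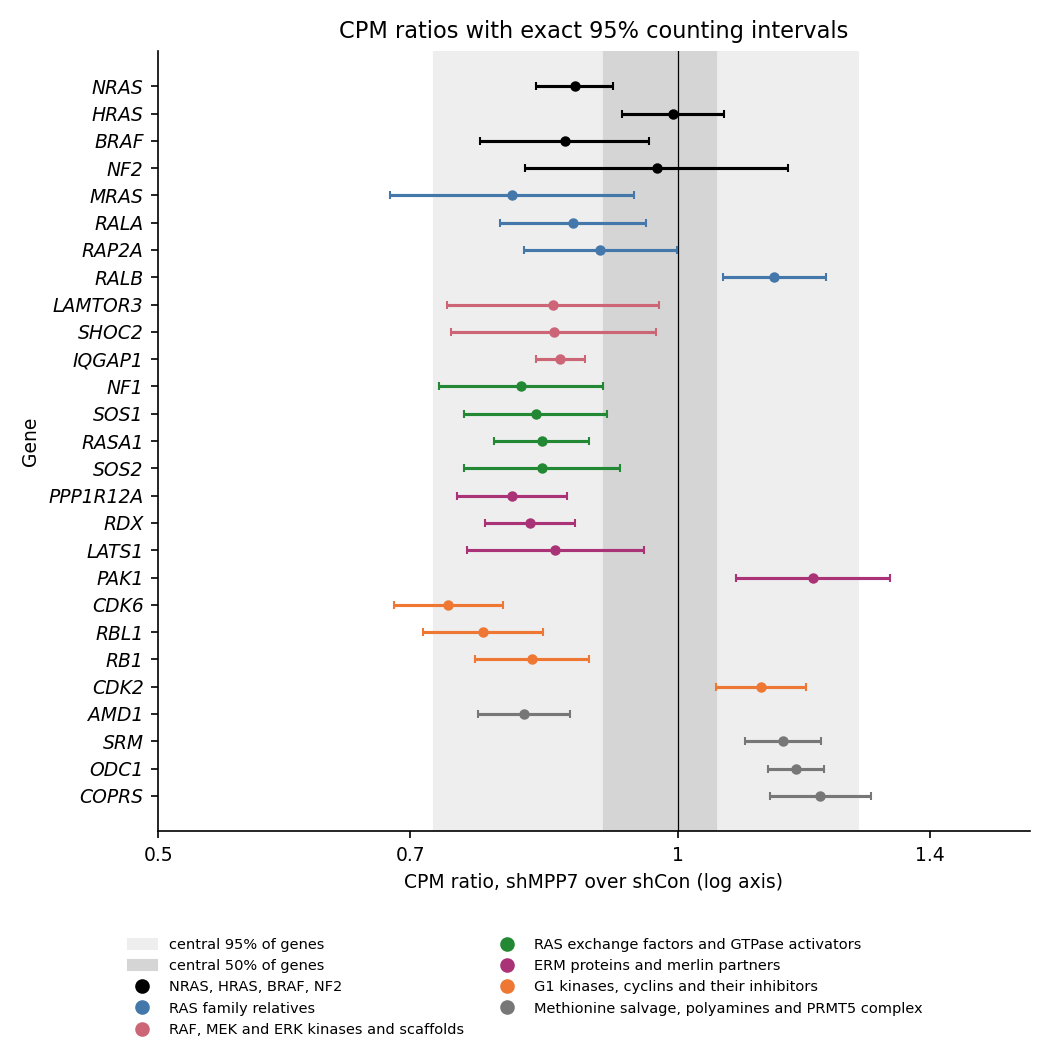
CPM ratio of shMPP7 over shCon (log axis) with exact 95% counting intervals. NRAS, HRAS, BRAF and NF2 are black, and the genes with the largest absolute log2 CPM ratios in each of 6 lists are in colour. Grey bands hold the central 50% and 95% of all gene names with at least 100 counts. NRAS and BRAF lie just below the inner band at 0.872 and 0.860, HRAS and NF2 lie inside it, and CDK6 at 0.737 is the lowest gene drawn.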

How the data were processed

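RNA from 2 MDA-MB-231 cultures was analysed, 1 library per group, grouped by the genotype label. The deposited table, per the file headers, gives a count and an FPKM value per gene and library. The authors' deposited counts are estimated counts and were rounded to whole numbers for intervals only. The authors' deposited FPKM values were used as given. TopHat2 2.0.9, Cuffdiff and the hg19 build appear in the submitters' processing notes with no role stated, and the sources used here do not name the counting tool. Positions, types and lengths were taken from GENCODE 29 (GRCh38), which held 57895 (99.4%) of the gene IDs, and promoter windows from RefSeq.

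The members and lists were chosen with earlier results of these data known. CPM was the count divided by the library total. The CPM ratio has an exact 95% interval (Clopper-Pearson, given the summed count), single counts an exact Poisson interval, and a count of 0 a limit of 3 counts. PCR reads without molecular identifiers are not independent molecules, so these cover counting error only. Where a name had several lines (215 names) the line with the largest mean count was used. A log2 CPM ratio has 0.1 CPM added to both values. Near silent means 10 counts or fewer over both libraries. Named were the 7 members, MPP7, the 4 genes of each list with the largest absolute log2 CPM ratio, and protein-coding genes within 3 Mb of CDKN2A. Other list members were named after their values were seen. The length and GC trend was a quadratic fit of the log2 CPM ratio over 11368 protein-coding genes. Copies of transcripts were searched with blastn 2.17.0 (97% identity, 100 bases, same strand). TMM came from edgeR 4.0.16 and median-of-ratios factors from DESeq2 1.42.0, used for scaling only. A few genes that would belong in the lists are not reported here.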

Additional observations from a re-analysis of the deposited data

How the results depend on the processing

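Of 80 alternatives over 20 results, 60 left the value within its counting interval, its spread or 1.5 times its count. With the trend with length and GC content removed, NRAS moved from 0.872 to 0.965 and BRAF from 0.860 to 0.987. Other scalings and the deposited FPKM kept both within their intervals. HRAS over NRAS turned round with CPM in place of FPKM (0.542 in shCon, 0.618 in shMPP7), because CPM takes no account of length. It was 1.96 and 2.23 with CPM per kilobase of the longest transcript, an alternative chosen after seeing the data, as was the trend removal for the lists. The number of genes at least 2-fold higher in CPM went from 19 to 349 with a minimum of 10 counts, 2437 with none and 74 with a fold of 1.5, and the number lower from 13 to 446, 3086 and 142. In FPKM, 115 genes higher became 202 with 0.1 added, 44 with 5 added, 47 with a minimum mean of 5 and 175 with none, and 114 lower became 210, 42, 33 and 185. The cause of these moves was not tested. The intervals above and below 1 numbered 1676 and 2618 in CPM, 2248 and 2128 with TMM and 2477 and 1976 with median-of-ratios factors. None of the 4 expressed members passed 2-fold in the settings run on its ratio. The silence of the 3 genes on 9p held with a limit of 3 counts and with a mean FPKM under 0.1. TMM shifted all log2 ratios by 0.03. No paired analysis was possible because each group had 1 library. No library could be left out for the same reason.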
